A study of Mus musculus with 12 samples.

Results

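Guanylate-binding proteins (GBPs) and immunity-related GTPases (IRGs) are large GTP-hydrolysing proteins of cell-autonomous defence. The 10 genes described here were taken by name: Gbp2, Gbp3, Gbp4, Gbp5, Gbp6 and Gbp7 of the first family, and Iigp1, Irgm1, Irgm2 and Igtp of the second. All 10 were among the 57010 gene IDs in the tables. Gbp4, Gbp6 and Igtp were listed at 0 in every library, and the 7 others were tested. Each of these 7 passed the filter on low counts in all 4 libraries of each of the 3 groups, so none was kept by the group in which it was higher.

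Both families are best known as targets of interferon-gamma. The cytokine acts through JAK kinases on gamma-activated sites (GAS), and the interferon regulatory factors it induces act on interferon-stimulated response elements (ISRE). The proteins assemble on the membranes of intracellular parasites and bacteria, and GBPs also act in the sensing of bacterial lipopolysaccharide. IRGM proteins are regulators that keep the effector IRGs inactive on the cell's own membranes. Chondrocytes, the matrix-producing cells of cartilage, are not immune cells, but they respond to inflammatory cytokines.

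Poly(A) RNA of primary mouse chondrocytes was sequenced in 12 libraries, in a study of SIRT5, a mitochondrial lysine deacylase, in chondrocyte metabolism and osteoarthritis. There were 4 libraries labelled Control, 4 labelled WT from cells given a wild-type plasmid, and 4 labelled SIRT5F101L mutant from cells given a plasmid with that mutant. Cells of all 3 groups carry the genotype label wild type. Strain, age, the time after transfection and what the control cells received are not given in the labels, so delivery of a plasmid and its SIRT5 insert cannot be told apart in any comparison with control. Nothing in the labels says that libraries of a group came from separate cultures or animals, so p-values measure only the spread between these libraries, which may be technical.

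Libraries held 15095357 to 24242139 counts, so a count of 3 was worth 0.124 to 0.199 CPM of the raw total. Elsewhere CPM is scaled by the trimmed mean of M-values (TMM). In a principal component analysis of all tested genes, control and plasmid libraries parted on the leading axis, which carried 72.7% of the variance. On the next axis, with 5.66%, SIRT5F101L replicate 1 lay at 20.3, apart from the 3 others of its group at -23.5 to -17.0 and beside WT replicates. Results that rest on it are given below with and without it. Chondrocyte markers were all detected, and the summed level of 12 of them was 6460 to 8070 CPM in control, 2060 to 2190 CPM in WT and 1610 to 1830 CPM in SIRT5F101L libraries. Col2a1 held most of that sum, at 6710, 1660 and 1310 CPM on average. Of the 12, 10 fell in each comparison (28.1% and 30.7% of all tested genes were called lower). Acan (0.47) and Hapln1 (0.25) rose with WT. With SIRT5F101L Acan did not pass (0.10), and the call of Hapln1 (0.18, edgeR adjusted p = 0.0329) was lost with upper-quartile scaling (0.13, adjusted p = 0.11) and without SIRT5F101L replicate 2 (0.10, adjusted p = 0.175), among other settings. Sirt5 did not check the labels: its counts per library were 9 to 16 in control, 1 to 9 in WT and 9 to 19 in SIRT5F101L. It was not higher in WT libraries, so expression of the plasmid inserts is not shown by these counts, and each difference is one between libraries with these labels.

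The sequence before the start is shown first, because the 6 genes with both counts and a matched window share a motif there. The size of their mRNA responses differed. RefSeq (GRCm38.p6) windows of 250 bases before the annotated start were matched for 7 of the 10 genes: Gbp2, Gbp3, Gbp5, Gbp7, Irgm1, Irgm2 and Igtp. No window was matched for Iigp1, so the motif was not searched in the gene that fell with WT. The windows of 6 genes with counts lie at chr3:142620413-142620662 (Gbp2, plus strand), chr3:142559794-142560043 (Gbp3, plus), chr3:142496684-142496933 (Gbp5, plus), chr3:142530086-142530335 (Gbp7, plus), chr11:48871421-48871670 (Irgm1, minus) and chr11:58214727-58214976 (Irgm2, plus). They read 5′ to 3′ on the gene's strand, with the ISRE core GAAANNGAAA (either strand) in capitals.
Gbp2: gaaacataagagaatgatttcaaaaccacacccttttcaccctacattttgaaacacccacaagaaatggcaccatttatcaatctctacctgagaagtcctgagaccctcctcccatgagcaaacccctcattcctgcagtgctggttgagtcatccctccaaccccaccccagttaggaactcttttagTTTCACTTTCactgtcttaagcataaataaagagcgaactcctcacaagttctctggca
Gbp3: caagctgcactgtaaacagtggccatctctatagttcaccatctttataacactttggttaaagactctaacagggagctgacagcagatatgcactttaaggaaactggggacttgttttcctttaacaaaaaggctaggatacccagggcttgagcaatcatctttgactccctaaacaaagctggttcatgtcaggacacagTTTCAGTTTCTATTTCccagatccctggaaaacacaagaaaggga
Gbp5: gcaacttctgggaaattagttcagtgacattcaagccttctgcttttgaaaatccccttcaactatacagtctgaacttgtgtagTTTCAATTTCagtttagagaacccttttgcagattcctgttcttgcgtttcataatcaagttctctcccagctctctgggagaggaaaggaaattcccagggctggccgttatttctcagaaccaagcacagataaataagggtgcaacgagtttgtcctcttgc
Gbp7: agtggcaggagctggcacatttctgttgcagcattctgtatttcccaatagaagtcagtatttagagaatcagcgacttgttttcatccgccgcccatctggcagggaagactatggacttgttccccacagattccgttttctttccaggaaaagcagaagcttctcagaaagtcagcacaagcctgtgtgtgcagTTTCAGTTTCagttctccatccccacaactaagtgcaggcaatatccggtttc
Irgm1: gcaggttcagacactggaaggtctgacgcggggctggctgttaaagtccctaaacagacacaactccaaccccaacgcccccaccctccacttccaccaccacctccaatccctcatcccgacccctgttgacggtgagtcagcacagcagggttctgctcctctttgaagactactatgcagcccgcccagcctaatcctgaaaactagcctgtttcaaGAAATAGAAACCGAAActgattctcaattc
Irgm2: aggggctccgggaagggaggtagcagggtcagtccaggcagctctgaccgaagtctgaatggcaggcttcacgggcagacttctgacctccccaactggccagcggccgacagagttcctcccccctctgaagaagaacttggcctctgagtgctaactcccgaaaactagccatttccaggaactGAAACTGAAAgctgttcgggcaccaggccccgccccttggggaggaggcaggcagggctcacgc
All 6 windows, and that of Igtp, held at least 1 ISRE core, against 978 of 32851 RefSeq windows of the same length (2.98%). Among other interferon-inducible GTPases with a window, Gbp2b, Tgtp1, Tgtp2, Gm12185 and Gm12250 held the core as well. Ifi47, Gm5431, 9930111J21Rik1, 9930111J21Rik2 and Irgq did not.

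The distance of the ISRE core from the start differed between genes. It lay 50 to 59 bases before the start in Gbp2, 44 to 53 in Gbp7, 55 to 64 in Irgm2 and 25 to 34 in Igtp, and much farther away in Gbp5, at 156 to 165. Gbp3 and Irgm1 each had a pair of overlapping matches, nearest at 30 and 15 bases. Gbp3 has a further annotated start at which no core was found. The GAS motif TTCNNNGAA (its own reverse complement) occurred in Gbp5 and Gbp7, with 2 matches each, and in Irgm2 and Igtp, against 7.02% of all windows. Of these 7 genes, only Gbp5 matched the NF-kB consensus, which 7.25% of all windows held. The windows of Irgm2 and Igtp aligned over 221 bases with 89.1% identity. A match is a run of letters and does not show that a factor binds there.

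**Figure D1:**
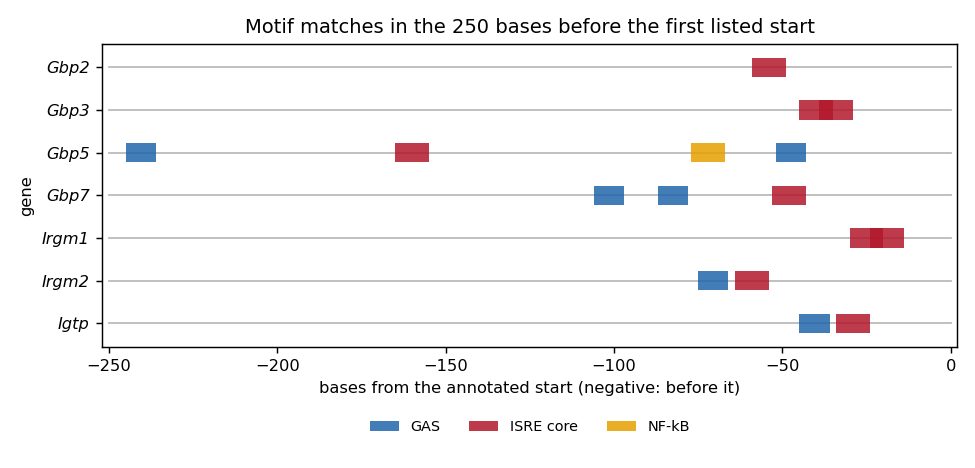
Position of motif matches in the 250 bases before the first listed start of 7 GTPase genes (x axis: bases from the start; red, ISRE core; blue, GAS; yellow, NF-kB). Each of the 7 windows holds an ISRE core, and in Gbp5 it lies farthest from the start, at 156 to 165 bases.

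The 4 detected GBPs were higher in both plasmid groups than in control, by 2.26 to 5.85 times with the WT plasmid. Among the IRGs, Irgm1 was higher by 1.29 times, Irgm2 was at nearly the control level, and Iigp1 was lower. With edgeR's quasi-likelihood model, adjusted by Benjamini-Hochberg over 14253 genes, 5 of the 7 tested GTPases rose and 1 fell in WT against control, and 6 rose and none fell in SIRT5F101L against control. These counts stand against a broad background. With the WT plasmid 28.7% of all tested genes were called higher and 28.1% lower (56.8% in all), and with SIRT5F101L 30% and 30.7% (60.7% in all). The median log2 fold change of the 7 was 1.18 and 1.24, beside -0.01 and -0.02 over all tested genes. Groups did not overlap for 6 of the 7 in each comparison, against 53.5% of all genes with the WT plasmid and 51.3% with SIRT5F101L. Both comparisons use the same 4 control libraries, so they are not independent of each other.

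**Figure D2:**
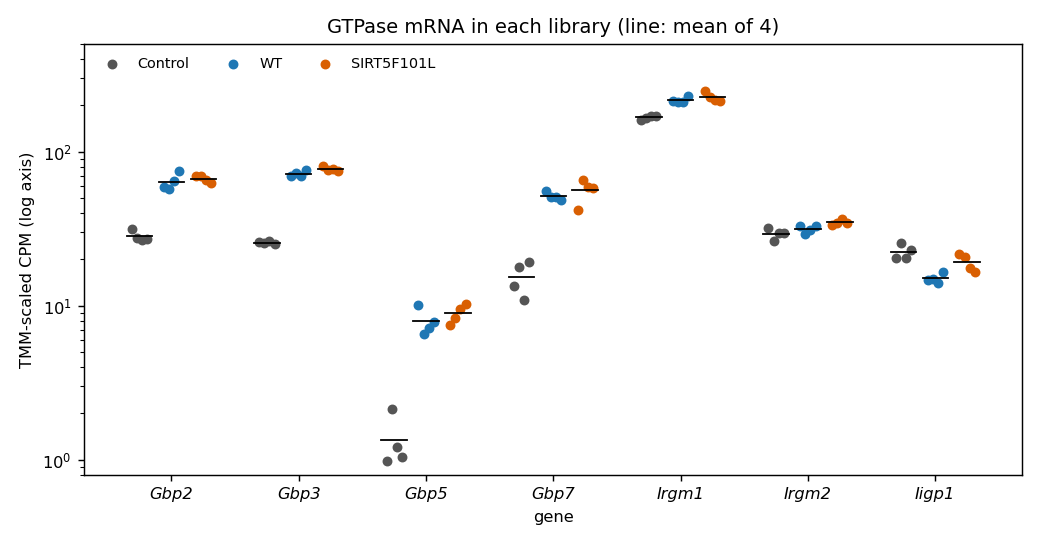
TMM-scaled CPM (log axis) of the 7 detected GTPases in each of 12 libraries (points; grey, Control; blue, WT; orange, SIRT5F101L), with a line at the mean of 4. The plasmid libraries of Gbp2, Gbp3, Gbp5 and Gbp7 all lie above control, whereas those of Iigp1 lie within or below its range.

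Gbp2, a prenylated GTPase, and Gbp3 belong to the chromosome 3 cluster, and both proteins are recruited to pathogen vacuoles. Gbp2 stood at 31.7, 27.5, 26.7 and 27.3 CPM in control libraries 1 to 4. It reached 59.3, 57.5, 64.6 and 74.4 CPM in WT libraries and 69.3, 70, 65.7 and 62.6 CPM in SIRT5F101L libraries. Every plasmid library was above every control, and the SIRT5F101L values lay inside the range of the WT values. The means were 28.3 ± 2.28, 63.9 ± 7.58 and 66.9 ± 3.42 CPM (SD, n = 4 each). Gbp2 rose by 1.18 on the log2 scale (SE 0.08, edgeR adjusted p = 2.46e-10) with WT and by 1.24 (SE 0.08, adjusted p = 9.74e-11) with SIRT5F101L.

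Gbp3 varied least between controls, at 25.9, 25.6, 26.2 and 25.2 CPM. WT libraries held 69.8, 72.8, 69.7 and 76.0 CPM, and SIRT5F101L libraries 80.9, 76.5, 77 and 74.9 CPM. The groups were tightly spread, and every plasmid library was above every control. Means were 25.7 ± 0.459, 72.1 ± 2.98 and 77.3 ± 2.56 CPM (SD, n = 4 each). The rise was 1.48 on the log2 scale (SE 0.06, edgeR adjusted p = 3.67e-14) with WT and 1.59 (SE 0.06, adjusted p = 1.20e-14) with SIRT5F101L.

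Gbp5, a prenylated GBP linked to inflammasome activation, had the lowest level and the largest fold change of the 7. Its control libraries held 17, 42, 23 and 19 counts, or 0.987, 2.13, 1.22 and 1.04 CPM. WT libraries stood at 10.1, 6.6, 7.21 and 7.86 CPM, and SIRT5F101L libraries at 7.53, 8.37, 9.54 and 10.2 CPM. The groups did not overlap with control, although control replicate 2 held about as much as 2 of the other controls together. Gbp5 rose from 1.34 ± 0.532 to 7.93 ± 1.51 and 8.91 ± 1.19 CPM (SD, n = 4 each). That was a log2 rise of 2.55 (SE 0.22, edgeR adjusted p = 3.35e-09) with WT and 2.71 (SE 0.21, adjusted p = 1.06e-09) with SIRT5F101L.

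Gbp7, which has been tied to the delivery of oxidase subunits to phagocytic vacuoles, had its widest spread among the SIRT5F101L libraries. Control libraries were at 13.4, 17.8, 10.9 and 19.1 CPM, WT libraries at 55.7, 51.1, 50.9 and 48.7 CPM, and SIRT5F101L libraries at 41.7, 65.1, 59.2 and 58.0 CPM. SIRT5F101L replicate 1, the library that lay apart, was the lowest of all plasmid libraries and still above every control. Means were 15.3 ± 3.81, 51.6 ± 2.94 and 56.0 ± 10 CPM (SD, n = 4 each). Gbp7 rose by 1.75 on the log2 scale (SE 0.14, edgeR adjusted p = 2.14e-09) with WT and by 1.87 (SE 0.14, adjusted p = 7.26e-10) with SIRT5F101L, or by 1.99 without that library. In the GENCODE M21 annotation, 11.3% of its exon sequence is shared with the annotated gene Gm43802, and how reads from there were counted is not known.

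Irgm1, the IRGM regulator also linked to autophagy, was the most abundant of the 7. It stood at 161, 165, 171 and 171 CPM in control, 214, 209, 209 and 230 CPM in WT and 249, 225, 218 and 213 CPM in SIRT5F101L libraries. All 8 plasmid libraries were above all controls, by a modest step. Means were 167 ± 5.08, 216 ± 9.87 and 226 ± 15.7 CPM (SD, n = 4 each). Irgm1 rose by 0.37 on the log2 scale (SE 0.06, edgeR adjusted p = 2.50e-05) with WT and by 0.44 (SE 0.06, adjusted p = 2.61e-06) with SIRT5F101L.

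Irgm2, an IRGM regulator close in sequence to Igtp, moved little with either plasmid. Control libraries held 32.0, 26.3, 29.5 and 29.6 CPM, WT libraries 32.9, 29.2, 30.8 and 32.7 CPM, and SIRT5F101L libraries 33.5, 34.7, 36.7 and 34.2 CPM. WT overlapped with control, while every SIRT5F101L library was above every control and every WT library. The log2 difference from control was 0.10 (SE 0.08, 95% interval -0.06 to 0.26, edgeR adjusted p = 0.284) in WT, which did not pass. It was 0.25 (SE 0.08, interval 0.09 to 0.40, adjusted p = 0.00892) in SIRT5F101L. Means were 29.4 ± 2.36, 31.4 ± 1.76 and 34.8 ± 1.4 CPM (SD, n = 4 each).

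Iigp1, an effector IRG that is loaded onto parasite vacuoles, was the one of the 7 that fell with WT. It stood at 20.5, 25.6, 20.5 and 22.9 CPM in control and at 14.6, 15, 14.1 and 16.5 CPM in WT libraries. SIRT5F101L libraries held 21.6, 20.7, 17.6 and 16.6 CPM. All WT libraries were below all controls, and SIRT5F101L libraries reached from just above the highest WT value into the control range. Means were 22.4 ± 2.44, 15.1 ± 1.04 and 19.1 ± 2.41 CPM (SD, n = 4 each). Iigp1 fell by 0.57 on the log2 scale with WT (SE 0.10, edgeR adjusted p = 9.35e-05).

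With SIRT5F101L the log2 difference of Iigp1 from control was -0.23 (SE 0.10, 95% interval -0.44 to -0.02) and missed the threshold, at an edgeR adjusted p of 0.0568. That verdict turned on single libraries and on the scaling. The difference passed without SIRT5F101L replicate 1 (-0.30, adjusted p = 0.0126), without SIRT5F101L replicate 2 (-0.27, adjusted p = 0.0457), without control replicate 1 (-0.27, adjusted p = 0.0438) and without control replicate 3 (-0.27, adjusted p = 0.0421). It also passed with upper-quartile scaling (-0.28, adjusted p = 0.0251). Without SIRT5F101L replicate 1, all 7 GTPases were called in SIRT5F101L against control, and the other 6 kept their calls.

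**Figure D3:**
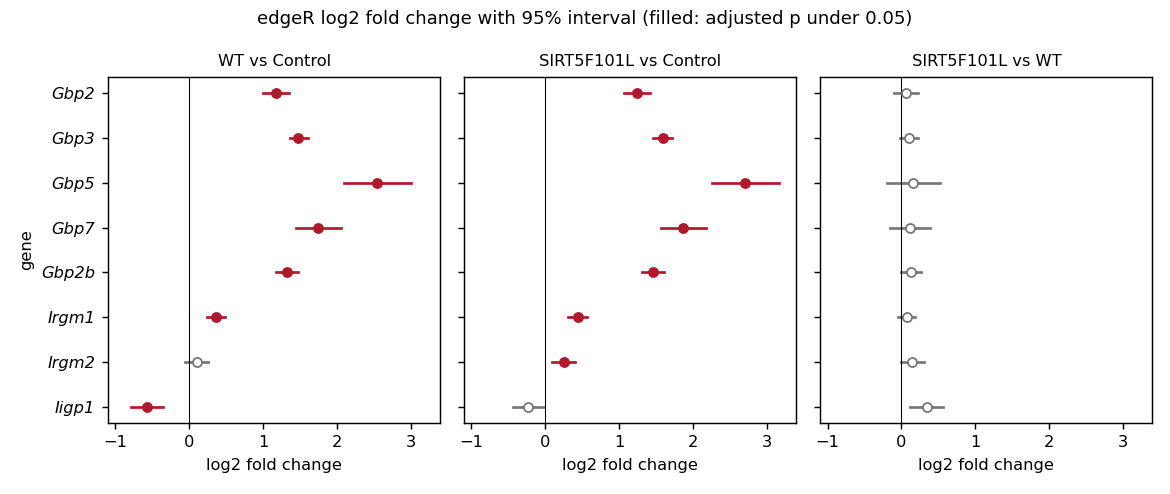
edgeR log2 fold changes (x axis) with 95% intervals for the 7 detected GTPases and Gbp2b in the 3 comparisons (filled red: adjusted p under 0.05; open grey: not passed). Gbp5 has the largest difference from control, Iigp1 is the one below 0, and between the plasmid groups no gene passed.

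Per kilobase of the longest annotated transcript, Irgm1 was first in all groups, at 43.6 CPM per kb in control, 56.2 in WT and 59.1 in SIRT5F101L. Control libraries then ranked Gbp2 (11.3), Gbp3 (9.60), Irgm2 (8.33), Iigp1 (7.18), Gbp7 (2.73) and Gbp5 (0.358 CPM per kb). Irgm2 and Iigp1 overlapped in range, and each other neighbouring pair was separated in all 4 controls. In WT libraries the order was Gbp3 (26.9), Gbp2 (25.4), Gbp7 (9.19), Irgm2 (8.90), Iigp1 (4.83) and Gbp5 (2.11 CPM per kb), and Gbp3 with Gbp2 and Gbp7 with Irgm2 overlapped. SIRT5F101L libraries gave the same order, with Gbp3 at 28.8, Gbp2 at 26.6, Gbp7 at 9.98, Irgm2 at 9.85, Iigp1 at 6.13 and Gbp5 at 2.37 CPM per kb, and there only Gbp7 and Irgm2 overlapped. When all exons of a gene were joined to give its length, Irgm1 stayed first, and in control Irgm2 (7.96) came just above Gbp3 (7.88 CPM per kb). With that length Gbp2 stood above Gbp3 in both plasmid groups, at 25.4 against 22.1 in WT and 26.6 against 23.7 CPM per kb in SIRT5F101L, so the order of these genes depends on the length used.

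The make-up of the family's transcripts therefore shifted from IRGs toward GBPs. Of the counts summed over the 7 genes, the 4 GBPs held a mean of 24.4% in control (22.8% to 25.2%), 42.7% in WT (42.6% to 43.1%) and 42.8% in SIRT5F101L (39.6% to 44.0%). Irgm1 fell from 57.7% of that sum to 47.1% and 46.2% although its own level rose. Iigp1 went from 7.73% to 3.29% and 3.90%, and Gbp7 from 5.27% to 11.3% and 11.5%. These shares follow from the gene levels above and carry no test of their own.

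**Figure D4:**
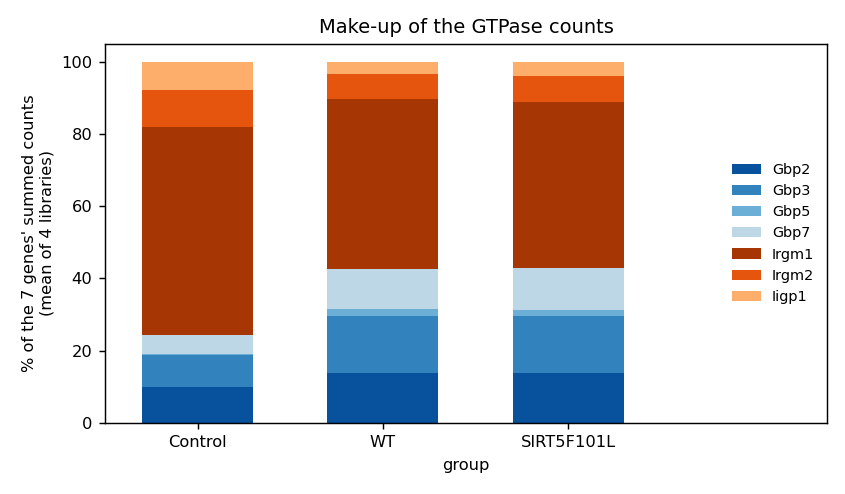
Share of each GTPase (stacked, in %) in the counts summed over the 7 detected genes, as the mean of 4 libraries per group. The 4 GBPs (blue) make up 24.4% in control, 42.7% in WT and 42.8% in SIRT5F101L, and Irgm1 (brown) is the largest single share in every group.

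Between SIRT5F101L and WT, none of the 7 GTPases passed the edgeR test, in a comparison with 6 calls among all genes (0.0421%, of which 0.0281% higher and 0.014% lower) and 1701 genes at an unadjusted p under 0.05. Log2 differences, SIRT5F101L minus WT, were 0.06 for Gbp2 (95% interval -0.10 to 0.23), 0.10 for Gbp3 (-0.02 to 0.22), 0.16 for Gbp5 (-0.20 to 0.52), 0.12 for Gbp7 (-0.16 to 0.39) and 0.07 for Irgm1 (-0.05 to 0.19). The intervals of Gbp2, Gbp3 and Irgm1 end below 0.24, while those of Gbp5 and Gbp7 leave room for larger differences. Iigp1 was 0.34 higher in SIRT5F101L (interval 0.12 to 0.56, edgeR adjusted p = 0.33), and Irgm2 was 0.15 higher (-0.01 to 0.31, adjusted p = 0.443). Those 2 of 7 had groups that did not overlap, against 4.02% of all genes, but neither passed. Without SIRT5F101L replicate 1 the count over all genes went from 6 to 2212. The 7 GTPases still had no call, with adjusted p = 0.0738 for Iigp1 and 0.115 for Gbp7. Their log2 differences without that library were 0.05 for Gbp2, 0.08 for Gbp3, 0.24 for Gbp5 and 0.24 for Gbp7. Those of the IRGs were 0.02 for Irgm1, 0.17 for Irgm2 and 0.27 for Iigp1.

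Gbp4 and Gbp6, GBPs of the chromosome 5 cluster, and Igtp, the IRGM protein also named Irgm3, had no count in any of the 12 libraries. The same held for 3916 of 20716 autosomal protein-coding IDs (18.9%), but also for all 926 X-linked and all 13 mitochondrial ones, which include genes that every cell uses. A 0 in these tables is therefore not read as absence of the transcript, and whether these 3 genes were silent or their reads went uncounted was not tested. Near-identical copies (at least 95% identity over 100 bases) covered 69.7% of the Gbp6 transcript, mostly Gbp10, which was also at 0. They covered 8.21% of Igtp, in Irgm2, and 5.93% of Gbp4, in Gbp8. Irgm2 in turn shares 4.62% of its transcript in this way, and the counts of Gbp2, Gbp3, Irgm1 and Iigp1 have no such copy. In the annotation, exons of Igtp and Irgm2 overlap, over 8.01% of Igtp and 4.39% of Irgm2 exon sequence, so their shared part need not be a separate copy. Gm43302 overlaps 29.0% of the Gbp6 and 46.3% of the Gbp10 exon sequence.

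The other interferon-inducible GTPases were read in the same way. Of 21 matched genes, 8 were at 0 and 7 were tested, of which 3 rose, 1 fell and 3 did not pass in each comparison with control, a share near the 56.8% and 60.7% of all tested genes. Gbp2b, which lies between Gbp3 and Gbp2 on chromosome 3, held 20.5, 22.5, 23.4 and 24 CPM in control, 57.4, 53.8, 56.7 and 59.1 CPM in WT and 60.4, 65.1, 64.6 and 58.8 CPM in SIRT5F101L libraries. It rose by 1.33 (edgeR adjusted p = 2.09e-12) and 1.46 (adjusted p = 4.25e-13) on the log2 scale, with no overlap with control. All 5 genes of that cluster, which run in the order Gbp5, Gbp7, Gbp3, Gbp2b and Gbp2 on the plus strand, thus rose in both comparisons. Of the chromosome 5 cluster only Gbp8 was tested, at 0.877, 1.13 and 1.33 CPM, and its log2 differences of 0.35 and 0.57 did not pass.

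Mx2, a dynamin-like antiviral GTPase, rose by 0.35 (edgeR adjusted p = 0.0006) with WT and 0.56 (adjusted p = 2.92e-06) with SIRT5F101L. The IRG gene Gm12185 rose by 0.55 (adjusted p = 0.00153) and 0.77 (adjusted p = 4.26e-05). Near-identical copies cover 41.0% of the Gm12185 transcript and 34.0% of that of Mx2, which the annotation lists as a polymorphic pseudogene, so the counts of both are uncertain. Irgq, an IRG-like gene that is not a classical interferon target, differed by 0.16 and 0.18, and Mx1 by -0.32 and 0.34, and none of these 4 differences passed. With SIRT5F101L, Irgq passed without SIRT5F101L replicate 1 (0.25, adjusted p = 0.0106) or control replicate 1 (0.25, adjusted p = 0.0475), and with WT it passed in the fit of only the 8 libraries compared (0.18, adjusted p = 0.0416).

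Few ligands that induce GTPases had counts enough to test. Of 21 interferon and interferon-inducing ligands, 12 were at 0 in all libraries, among them Ifng, the gene of interferon-gamma, and these zeros carry the same limit as those of Igtp. Ifnb1 reached 3 counts in a library, Il1b 7 and Tnf 19, each in control replicate 3, and Il27 reached 7 in SIRT5F101L replicate 3. Tnf held 17, 16, 19 and 6 counts in control, 0, 1, 5 and 0 in WT and 1, 2, 5 and 0 in SIRT5F101L libraries. Only Il18, at 40 to 156 counts per library, passed the filter, and it fell from 6.78 CPM to 2.89 and 2.76 CPM (log2 -1.23, edgeR adjusted p = 1.28e-05, and -1.30, adjusted p = 5.98e-06). Cytokine protein in the medium was not measured.

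Among 23 tested interferon receptor and signalling genes, 11 rose and 6 fell with WT, and 10 rose and 5 fell with SIRT5F101L, with median log2 fold changes of 0.29 and 0.17. Over all genes 56.8% and 60.7% were called, with 28.7% and 30% higher. Irf7, a regulatory factor that binds ISRE, had the highest level of these factors in the plasmid libraries. Control libraries held 150, 143, 148 and 135 CPM, WT libraries 425, 456, 471 and 458 CPM, and SIRT5F101L libraries 502, 447, 431 and 420 CPM. No plasmid library overlapped with control, and the log2 fold change was 1.65 in both (edgeR adjusted p = 1.62e-14 and 1.71e-14). Nlrc5, the transactivator of MHC class I genes, rose by 1.73 (adjusted p = 2.63e-11) and 1.92 (adjusted p = 4.57e-12). Irf1, the ISRE-binding factor that is itself a target of interferon-gamma, rose from 10.4 CPM to 16 and 13.1 CPM. Its log2 fold change was 0.62 (adjusted p = 6.36e-05) and 0.33 (adjusted p = 0.0133), and the second was lost without control replicate 1 (0.26, adjusted p = 0.0558).

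The kinases and other factors went both ways. Jak1 rose by 0.42 and 0.55, Jak2 by 0.29 and 0.51, Stat2 by 0.55 and 0.48, and Stat3 by 0.43 and 0.42 on the log2 scale. Irf3 (-0.45 and -0.62), Irf9 (-0.23 and -0.26) and Irf8, a myeloid factor at 2.17 CPM in control (-1.52 and -1.45), fell. Of the negative regulators, Socs3 (1.21 and 1.15) and the phosphatase gene Ptpn2 (0.84 and 0.93) rose, whereas Socs1, an inhibitor of JAK kinases, fell (-0.52 and -0.61). The receptor gene Ifngr1 fell by 0.30 on the log2 scale with each plasmid. Ifngr2 was at 0.20 (edgeR adjusted p = 0.0216) and 0.16 (adjusted p = 0.0469), and both calls were lost with upper-quartile scaling (0.15, adjusted p = 0.0775, and 0.12, adjusted p = 0.138) and, among other libraries, without control replicate 2 (0.17, adjusted p = 0.0668, and 0.14, adjusted p = 0.125). The call with SIRT5F101L was also lost without SIRT5F101L replicate 1 (0.11, adjusted p = 0.141). Ifnlr1, of the interferon-lambda receptor, was at -0.95 (adjusted p = 0.0154) and -0.69 (adjusted p = 0.0588), and Usp18, an inhibitor of type I interferon signalling, at 0.42 (adjusted p = 0.0104) and 0.13 (adjusted p = 0.405). With SIRT5F101L, Ifnlr1 passed in 4 other settings (-0.67 to -0.74), without WT replicate 3 (-0.70, adjusted p = 0.0357) and without SIRT5F101L replicate 3 (-1.12, adjusted p = 0.0048). With WT it was lost without WT replicate 1 (-0.82, adjusted p = 0.0514). Without WT replicate 2 neither passed with WT (-0.77, adjusted p = 0.0558, and 0.33, adjusted p = 0.051). Ifnar1 (0.00 and 0.05), Ifnar2 (-0.19 and -0.28), Irf2 (0.04 and 0.17), Irf5 (0.31 and 0.34) and Ptpn1 (0.11 and 0.07) did not pass. With SIRT5F101L, Irf2 passed without SIRT5F101L replicate 1 (0.29, adjusted p = 0.00979) and Irf5 without SIRT5F101L replicate 2 (0.47, adjusted p = 0.0203). With WT, Ptpn1 passed in the fit of only the 8 libraries compared (0.12, adjusted p = 0.049).

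**Figure D5:**
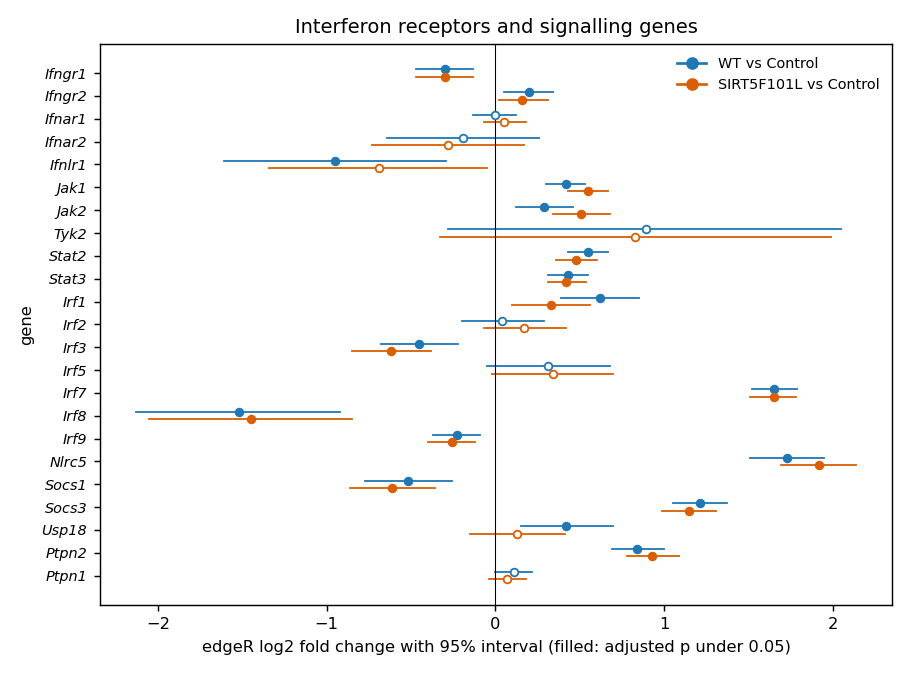
edgeR log2 fold changes (x axis) with 95% intervals for 23 interferon receptor and signalling genes in WT (blue) and SIRT5F101L (orange) against control (filled: adjusted p under 0.05). Irf7 and Nlrc5 lie highest among the factors, at 1.65 to 1.92, and Irf8 lies lowest, at -1.52 and -1.45.

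Other genes known as interferon-gamma targets were called in both directions. Of 15 tested, 7 rose and 3 fell with WT, and 7 rose and 5 fell with SIRT5F101L, beside 28.7% higher and 28.1% lower, and 30% and 30.7%, over all genes. Nos2, the inducible nitric oxide synthase, rose by 6.07 (edgeR adjusted p = 6.27e-13) and 6.77 (adjusted p = 5.01e-14), from 0.245 CPM, and the chemokine gene Cxcl9 by 5.02 (adjusted p = 4.34e-14) and 5.14 (adjusted p = 2.55e-14). The peptide transporter gene Tap1 fell by 0.49 and 0.48 (adjusted p = 6.23e-05 and 6.79e-05) on the log2 scale. Control libraries held only 4, 0, 13 and 1 counts of Nos2, so its fold change is imprecise, and without control replicate 3 it was 7.43 and 8.13. Nos2 and Cxcl9 are targets of NF-kB as well. Of 13 tested NF-kB targets, 9 rose and 3 fell in each comparison, with medians of 0.94 and 1.06, where 28.7% and 30% of all genes were called higher. Il6 rose by 5.50 and 5.82 and Cxcl1 by 3.69 and 3.91, while Vcam1 fell by 0.77 and 0.39 on the log2 scale.

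Genes that act with the GTPases were read next. GBPs promote the lipopolysaccharide response through Casp4 (caspase-11). Casp4 rose from 1.36 CPM to 7.33 and 9.14 CPM (log2 2.42, edgeR adjusted p = 3.17e-08, and 2.74, adjusted p = 3.71e-09). Zbp1, a sensor of Z-form nucleic acid, rose by 2.96 and 3.04. In all, 3 of 8 tested inflammasome genes linked to GBPs rose and 2 fell in each comparison, Il18 among them. The median log2 fold changes of these 8 were -0.15 and -0.04. Of 6 enzymes that add or finish the prenyl anchors of GBPs, 2 rose in each comparison, namely Icmt (0.58 and 0.63) and Zmpste24 (0.36 and 0.41). The farnesyltransferase subunit gene Fnta fell (-0.51 and -0.57), and with SIRT5F101L the protease gene Rce1, named after its values were seen, fell as well (-0.36, edgeR adjusted p = 0.00568). Of 16 genes of ATG8 conjugation and vacuole targeting, which direct GTPases to vacuoles, 4 rose and 7 fell with WT, and 5 rose and 7 fell with SIRT5F101L. Atg7 (0.57 and 0.56) and Trim21 (0.40 and 0.46) rose, and Atg10 (-0.96 and -0.84) and Gabarap (-0.61 and -0.75) fell. Over all genes 28.7% and 30% were called higher and 28.1% and 30.7% lower, and the ATG8 list's median log2 fold changes were 0.03 and 0.00.

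Macrophages and T cells also express these GTPases, so their markers were read in the same libraries. The summed level of 16 macrophage and myeloid markers, with 1 at 0, was 225 to 263 CPM in control, 145 to 166 CPM in WT and 153 to 198 CPM in SIRT5F101L libraries. Of 14 tested, 13 fell with WT and 12 with SIRT5F101L, among them C1qa (-2.36 and -2.52) and Cx3cr1 (-2.53 and -2.73), and Cd14 rose (2.05 and 2.27), where 28.1% and 30.7% of all genes were called lower. Lyz2 alone held 125, 60.4 and 61.0 CPM of the sum on average, and Cd14 held 12.4, 51.2 and 59.7 CPM. The summed macrophage marker level, which rests largely on Lyz2, was thus lower where the GBPs were higher. With WT it moved in the direction of Iigp1. The 13 T and NK cell markers, 6 of them at 0, summed to 0.109 to 0.608 CPM over all libraries. The 8 endothelial markers summed to 51.6 to 57.3 CPM in control, 54.1 to 57.0 CPM in WT and 55.4 to 60.9 CPM in SIRT5F101L libraries, and Erg alone held 46.8, 47.3 and 49.3 CPM of it on average. Of 6 tested, Vwf rose in each comparison, by 0.54 (edgeR adjusted p = 0.0199) and 0.65 (adjusted p = 0.0054), where 28.7% and 30% of all genes were called higher. The first was lost without WT replicate 2 (0.37, adjusted p = 0.105). Fewer cells of a type and less RNA per cell cannot be told apart in these bulk libraries, and the part of other cell types in the GTPase levels was not tested.

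The genes whose levels ran most like the mean standardised level of the 7 GTPases over 12 libraries were Twsg1 (Pearson's r = 0.986), Hsp90aa1 (0.985), Dcn (0.983), Gm21399 (0.981) and Adora2b (0.981). The points include the step between control and plasmid libraries, and how much of the likeness is that step was not measured. Dcn encodes decorin, a matrix proteoglycan, and Hsp90aa1 a chaperone. With group means subtracted, the closest were Lum, which encodes the proteoglycan lumican (0.932), Akr1e1 (0.917), the interferon-induced gene Ifit1 (0.914), Uckl1 (0.901) and Pik3r6 (0.893). Most of this second set did not move with the GBPs between groups. Against control, Lum (-0.90 and -0.80), Akr1e1 (-0.37 and -0.48) and Pik3r6 (-1.66 and -2.57) were lower on the log2 scale. Uckl1 hardly differed (0.01 and -0.07), and Ifit1 was higher (1.26 and 1.27). Each set was taken as the highest among all tested genes outside the 7. Both sets of correlations are descriptions over 12 libraries that share a library's depth and composition in each point.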

How the data were processed

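The values deposited by the authors are whole-number counts per Ensembl gene ID, 1 table per library. Per the submitters' processing notes, FastQC 0.11.9, HISAT2 2.2.1, HTSeq 2.0.2 and DESeq2 1.38.3 were used with the builds GRCm39 and mm39. Annotation and strand setting are not given in the sources used here, so antisense reads could be included. Of 57010 IDs, 52029 were given a symbol from a supplied Ensembl table.

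Groups were taken from the treatment labels, and replicate numbers only follow the order of deposition. Counts were tested with edgeR 4.0.16 (R 4.3.3): default filter by group, TMM scaling, and quasi-likelihood models fitted to the 12 libraries together, with 3 group means and 9 residual degrees of freedom. Benjamini-Hochberg adjustment ran over all 14253 tested genes, 2-sided, with a threshold of 0.05. The common dispersion was 0.00844. The fit was tested on simulated counts. No pair of libraries was identical.

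The members, gene lists, tests and alternatives were chosen with earlier results of these data known. Named genes were the members, the listed GTPases, ligands and signalling genes averaging 1 CPM or more, up to 2 genes in each direction per other list, and the 5 genes most like the members by each correlation. Gm4951 falls outside this rule. A signalling gene is not reported here and is not in its list's counts. The motifs were searched on both strands of RefSeq windows, in a build other than the files', used for sequence only. Exon overlaps and copies came from GENCODE M21. Alternatives were RLE and upper-quartile scaling, filters at 1 count and at 1 CPM on average, edgeR's robust prior, fits to 8 libraries, DESeq2 1.42.0 and leaving out each library. The floor of 3 counts covers counting error only, and the protocol names no molecular identifiers.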

Additional observations from a re-analysis of the deposited data

Results flagged for a closer look

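Gbp2 in control replicate 1, at 31.7 CPM, lay apart from the 3 other controls at 26.7 to 27.5 CPM. The gap was 0.841 of the group's whole range. Of 24 groups of 4 libraries read in this way, chance alone marks about 1.2. All plasmid libraries were above that control too, and leaving out each library in turn gave log2 fold changes of 1.10 to 1.23 with WT and 1.21 to 1.30 with SIRT5F101L.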

How the results depend on the processing

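For the 7 tested GTPases and the counts of calls, 491 of 512 values under the alternatives kept their direction and side of the threshold, or stayed within 1.5 times of the count. The exceptions were Iigp1 and the count between the plasmid groups. Iigp1 in SIRT5F101L against control passed with upper-quartile scaling (-0.28), and with each library left out ranged from -0.30 to -0.16. The 6 genes called in SIRT5F101L against WT became 354 with all genes of at least 1 count, 44 with DESeq2, 2 with a robust prior and 2 in the fit of 8 libraries. They ranged from 0 to 2212 with 1 library left out, and the highest was without SIRT5F101L replicate 1. GTPase calls stayed at 6 with WT, 6 to 7 with SIRT5F101L and 0 between the plasmid groups with 1 library left out. The cause was not tested.

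Of 2482 values for 65 other named genes, 2418 kept their direction and call, 38 lost a call, 13 gained one and 13 changed sign, all of the last uncalled and near 0. Calls lost in at least 1 setting included Tap2, Icam1, Vwf and Ifngr2 with WT and Hapln1 and Ifngr2 with SIRT5F101L. Ifnar1 with WT was 0.00 with RLE scaling, at least 1 count and DESeq2, 0.01 in the fit of 8 libraries and up to 0.02 with a library left out. Irf2 was -0.01 with upper-quartile scaling and -0.05 to 0.11 with a library left out, and Uckl1 -0.04 and -0.06 to 0.07. Usp18 with SIRT5F101L was -0.01 to 0.22 with a library left out, lowest without SIRT5F101L replicate 1.

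No paired analysis was possible because the labels give no replicate numbers shared between groups. At these depths Gbp5 in control, at 17 to 42 counts per library, is the least precise of the 7.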

Other observations

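Gm4951, an IRG gene on chromosome 18 like Iigp1, was named after its values were seen. It had 28, 16, 38 and 25 counts in control, 3, 6, 3 and 4 in WT and 12, 8, 25 and 8 in SIRT5F101L libraries, so WT lay at or just above the floor of 3 counts. It fell by 2.67 on the log2 scale with WT (edgeR adjusted p = 2.95e-05) and by 1.10 with SIRT5F101L (adjusted p = 0.0134), and the second was lost without control replicate 3 (-0.90, adjusted p = 0.0608). SIRT5F101L stood above WT without overlap, as for Iigp1, by 1.57 (adjusted p = 0.33), which passed only without SIRT5F101L replicate 1 (1.59, adjusted p = 0.04).

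Within groups, Gbp7 tended to be higher in the libraries that lay lower on the second principal component of all genes. Control replicates 2 and 4, at 17.8 and 19.1 CPM, lay at -7.16 and -7.60 on it, and replicates 1 and 3, at 13.4 and 10.9 CPM, at 2.87 and 8.02. WT replicate 1, the highest of its group at 55.7 CPM, lay at -1.07, and replicate 4, the lowest at 48.7 CPM, at 20.1. SIRT5F101L replicate 1, at 41.7 CPM, lay at 20.3, and the others, at 58.0 to 65.1 CPM, at -23.5 to -17.0. Gbp7 itself was among the genes that entered the components.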
